A study of Sus scrofa with 6 samples.

Results

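The genes described here build the collagen-rich matrix of connective tissue: 13 collagen chains, 6 hydroxylases and 1 chaperone that act on them inside the cell, 5 genes of propeptide cleavage and crosslinking, 5 small proteoglycans, 4 fibronectin and matricellular genes, 5 elastic fibre genes, and 3 markers of fibroblasts. The 42 genes were chosen by name, and 41 of the 35670 genes in the count table carry 1 of the names. THY1 was not paired with a row and was not analysed here. The counts are of messenger RNA from the ampulla of the oviduct in female pigs (Sus scrofa). The groups were 3 libraries of the post-ovulatory stage and 3 of the early luteal stage, with no treatment, strain or age given in the labels. Whether the 3 libraries of a stage are from different animals is not stated, so a p-value here reflects spread among libraries that may be technical.

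Fibrillar collagen is made as procollagen in the endoplasmic reticulum. There its prolines and lysines are hydroxylated by the P4HA and PLOD enzymes, and the chaperone encoded by SERPINH1 (also called HSP47) binds the folded triple helix. After secretion the propeptides are removed by BMP1, helped by the enhancer protein of PCOLCE, fibrils assemble, and lysyl oxidases (LOX, LOXL1, LOXL2) crosslink them. Small leucine-rich proteoglycans such as decorin and lumican sit on the fibril surface and regulate its assembly. In the ampulla, where fertilisation takes place, this matrix fills the connective tissue core of the mucosal folds and lies between the bundles of smooth muscle.

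The libraries held between 7370723 and 30954222 counts, and values below are in CPM (counts over the library total scaled by TMM, times 1e6). A count of 3 corresponds to between 0.0959 and 0.406 CPM, a limit that covers counting error only. Of all genes, 17920 passed the filter on low counts, and so did the 41 genes with a row. Transcript lengths were not used here, so CPM levels are compared between libraries and not between genes. Epithelial, muscle and stromal transcripts were present in every library, with EPCAM from 385 to 1093 CPM, MYH11 from 493 to 4766 CPM and VIM from 99.1 to 1068 CPM. Early luteal replicate 2 stood apart from the rest over all genes (176 on the first principal component, the others between -51.0 and 2.39), and it was the lowest library for 39.2% of all tested genes. It was the lowest for 18 of the 41 matrix genes (43.9%), close to that share. Post-ovulatory replicate 2 was the highest library for 21 of the 41 (51.2%), against 14.2% of all tested genes. Libraries did not all correlate best within their stage. The highest correlation of log2 CPM between any pair was 0.945, of post-ovulatory replicate 3 with early luteal replicate 1.

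Most of these genes had lower counts in the early luteal ampulla. Of the 41, 32 had a negative log2 fold change (early luteal over post-ovulatory), a share of 78.0% against 51.8% of all tested genes, and their median was -0.61 against -0.03 over all genes. The genes of lowest unadjusted p included the collagen I and III chains, the collagen chaperone SERPINH1, SPARC, elastin and the fibroblast marker PI16, all with lower counts in early luteal tissue, and tenascin-C (TNC), with higher counts. None of them was called: by the quasi-likelihood test of edgeR, 0 of the 41 passed a Benjamini-Hochberg adjusted p of 0.05 over all genes, as did 0% of all 17920 genes tested. At an unadjusted p under 0.05 it counted 9 of the 41 as lower (22.0%), where it counted 3.54% of all tested genes, and 1 as higher (2.44%), where it counted 3.57%. In 12 of the 41 (29.3%, against 9.57% of all tested genes) the highest early luteal library lay below the lowest post-ovulatory one, and in 2 (4.88%, against 7.61%) the lowest lay above the highest. DESeq2, a second count test, called 4 of the 41 as lower (9.76%, against 0.523% of all genes it gave an adjusted p) and 0 as higher, against 0.511%. Limma voom called 0 of the 41 and 0% of all genes. Without early luteal replicate 2 edgeR counted 8 lower (against 4.22% of all tested genes) and 1 higher (against 4.10%) at an unadjusted p under 0.05, with log2 fold changes of -2.13 for COL1A1, -1.57 for SERPINH1, -1.02 for SPARC and 0.90 for TNC. Without post-ovulatory replicate 1 it counted 5 lower, against 1.42% of all tested genes in that fit. The genes were chosen with earlier results on these libraries known, so these counts describe the list and are no separate evidence. In tissue of mixed cells, a smaller share of the cells that make these transcripts and less RNA per such cell cannot be told apart.

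**Figure D1:**
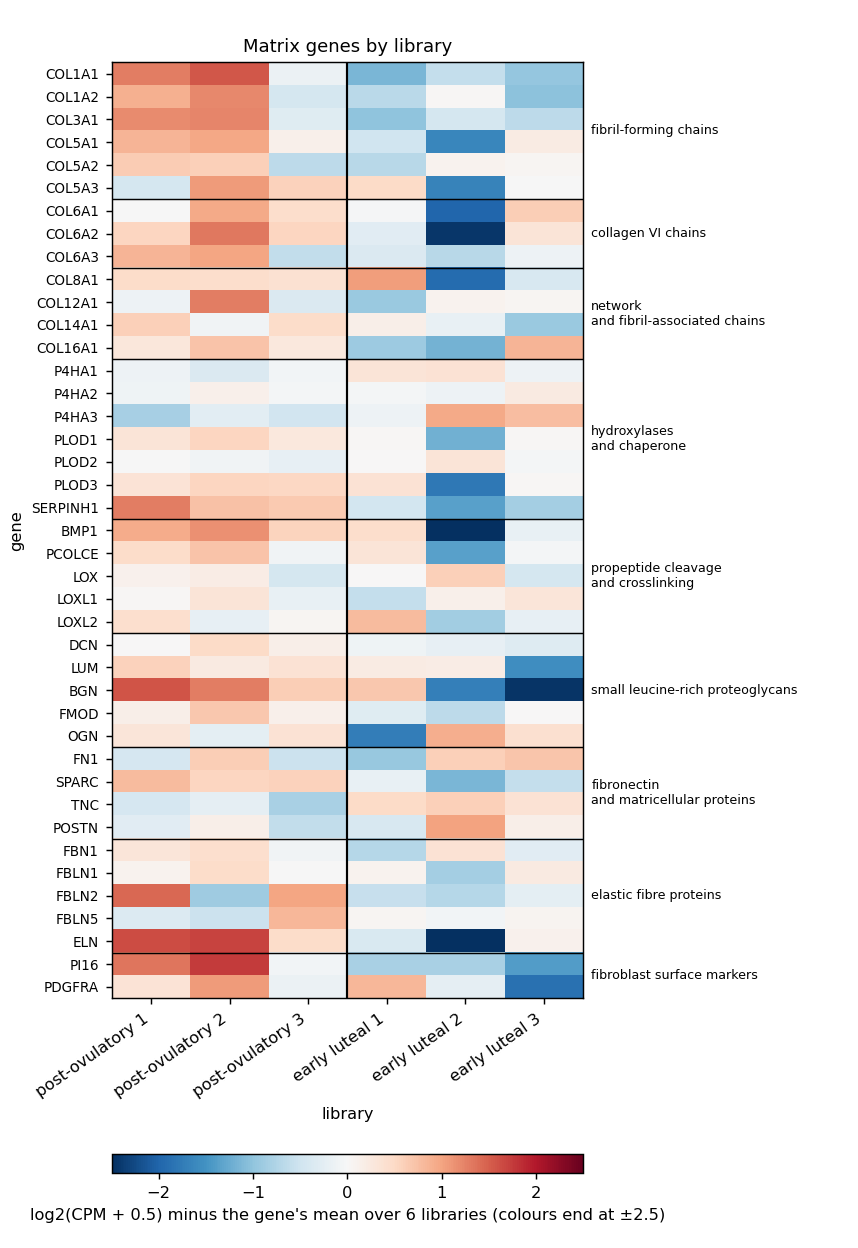
Level of each of the 41 genes (rows, grouped by role) in each of the 6 libraries (columns), as log2(CPM + 0.5) minus the gene's mean over the libraries, red above and blue below that mean. The COL1A1 and COL3A1 rows are red in post-ovulatory replicates 1 and 2 and blue in the 3 early luteal libraries, and TNC is blue in the post-ovulatory and red in the early luteal libraries.

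The fibril-forming chains stood lowest against post-ovulatory tissue among the collagen groups, with a median log2 fold change of -1.17. Of the 6 chains, 6 were lower (against 51.8% of all tested genes), 4 of them at an unadjusted p under 0.05 (against 3.54%). COL1A1 encodes the chain present in 2 copies in the collagen I trimer; its RefSeq gene lies at chr12:26379087-26397180 of Sscrofa11.1. It stood at 497, 597 and 184 CPM in post-ovulatory and 91.3, 135 and 104 CPM in early luteal tissue, in the order of replicates 1, 2 and 3 that is kept throughout. The stages did not overlap, but post-ovulatory replicate 3 lay much nearer to the early luteal libraries than the other 2 of its stage did. The means were 110.2 ± 22.5 against 426 ± 215 CPM (early luteal against post-ovulatory, SD, n = 3 each), 3.87-fold lower, with a log2 fold change of -1.95 ± 0.44 (SE). Its adjusted p was 0.554 in edgeR and 0.00794 in DESeq2.

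COL1A2, at chr9:74174484-74210407, encodes the partner chain of collagen I. It stood at 361, 453 and 144 CPM in post-ovulatory and 123, 201 and 96.1 CPM in early luteal tissue. Here the stages overlapped, because early luteal replicate 2 lay above post-ovulatory replicate 3 (log2 fold change -1.19 ± 0.46, edgeR adjusted p = 0.685). COL3A1, the single chain of collagen III, which copolymerises with collagen I in soft tissues, stood at 619, 637 and 222 CPM in post-ovulatory and 135, 199 and 172 CPM in early luteal tissue. Its libraries kept the order seen for COL1A1, with post-ovulatory replicates 1 and 2 far above the early luteal libraries and replicate 3 just above them (log2 fold change -1.55 ± 0.42, edgeR adjusted p = 0.632, DESeq2 adjusted p = 0.0623).

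Collagen V sits inside collagen I fibrils and limits their diameter. COL5A1 stood at 95.9, 105 and 58.4 CPM in post-ovulatory and 37.4, 16.8 and 61.3 CPM in early luteal tissue, and its stages overlapped through early luteal replicate 3 (log2 fold change -1.16 ± 0.46, edgeR adjusted p = 0.685). COL5A2 is the direct neighbour of COL3A1 on chromosome 15 (chr15:93611856-93981131, with COL3A1 at chr15:93556914-93595678). Its log2 fold change was -0.44 ± 0.39 against -1.55 for COL3A1, and it ran from 47.7 to 117 CPM in post-ovulatory and from 46.7 to 79.9 CPM in early luteal tissue. COL5A3, a chain of some collagen V trimers, ran from 12.4 to 36.4 and from 5.01 to 24.1 CPM.

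**Figure D2:**
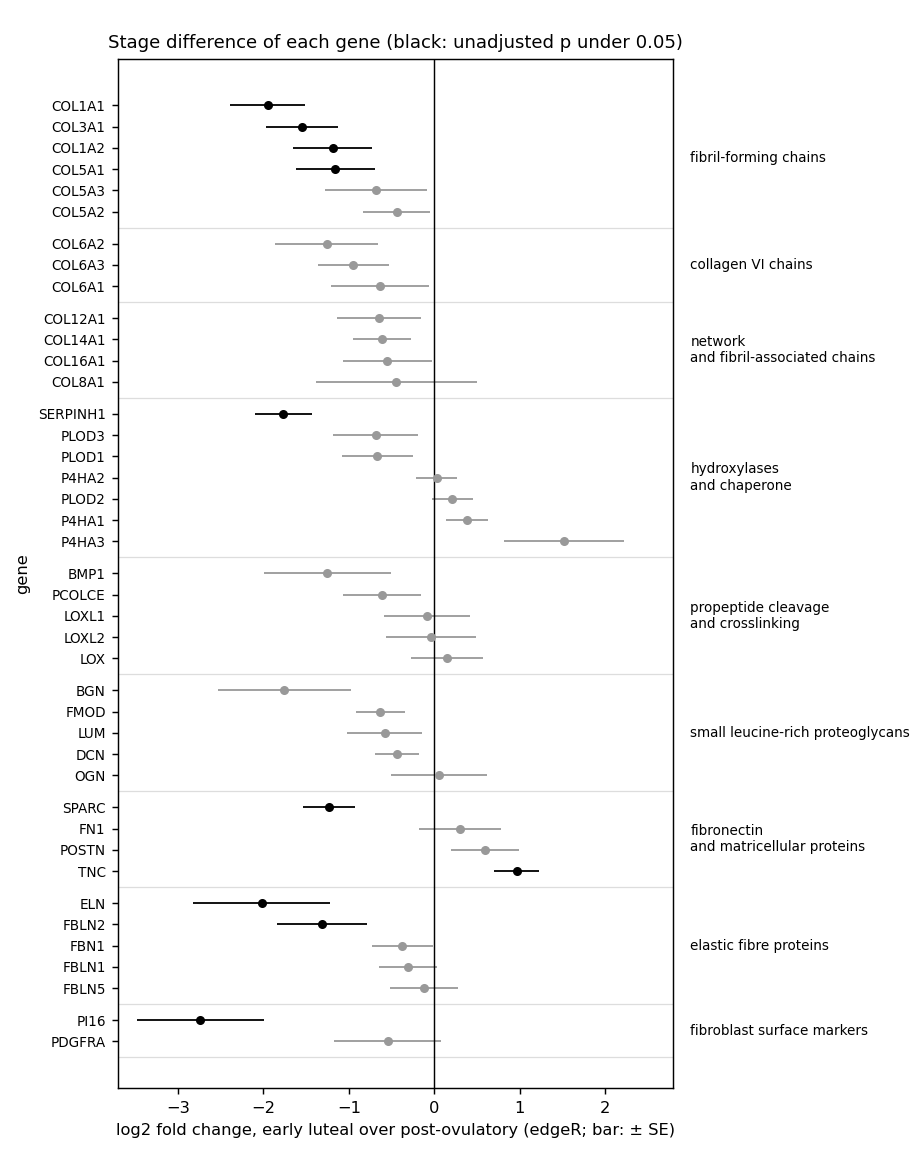
Log2 fold change of early luteal over post-ovulatory tissue (edgeR, bars ± SE) for the 41 genes by role, with the 10 genes at an unadjusted p under 0.05 in black. The 13 collagen chains all lie left of 0, from -1.95 (COL1A1) to -0.44 (COL5A2), whereas the hydroxylases lie on both sides.

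Collagen VI forms beaded microfilaments around cells, from chains encoded by COL6A1, COL6A2 and COL6A3. All 3 were lower in the mean (against 51.8% of all tested genes), with log2 fold changes of -0.64, -1.26 and -0.95. None reached an unadjusted p under 0.05, where 3.54% of all tested genes were lower. COL6A1 stood at 204, 397 and 279.5 CPM in post-ovulatory and 200.2, 51.6 and 315 CPM in early luteal tissue. Early luteal replicate 2 was by far the lowest, replicate 1 lay just below the lowest post-ovulatory value and replicate 3 lay within the post-ovulatory range. COL6A3 stood at 189.9, 207 and 67.8 CPM in post-ovulatory and 81.0, 64.2 and 95.3 CPM in early luteal tissue, with post-ovulatory replicate 3 at the early luteal level. COL6A2 was the chain whose stages did not overlap, with 97.7 CPM as the lowest post-ovulatory and 84.4 CPM as the highest early luteal value. Early luteal replicate 2 was the lowest library for COL6A2 too, at 12.1 CPM. Without that library the log2 fold changes were -0.19 for COL6A1, -0.80 for COL6A2 and -0.81 for COL6A3. The median of the 3 chains was then -0.80, against -0.95 with it.

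The chains of other collagens showed smaller differences, with log2 fold changes between -0.65 and -0.44. Of the 4, 4 were lower in the mean, against 51.8% of all tested genes. COL14A1, which encodes a collagen bound to the surface of fibrils, stood at 150.03, 93.3 and 135 CPM in post-ovulatory and 109, 87.2 and 51.7 CPM in early luteal tissue (log2 fold change -0.61 ± 0.34). COL16A1, another fibril-associated collagen, stood at 114, 155 and 112 CPM in post-ovulatory and 49.8, 41.3 and 169 CPM in early luteal tissue. The highest of its 6 values was an early luteal one, in replicate 3, and the other early luteal libraries were the lowest; without replicate 3 its log2 fold change was -1.49 in place of -0.55. COL12A1, a fibril-associated collagen of tissues under tension, owed its mean difference to post-ovulatory replicate 2, at 113 CPM, while the other 5 libraries lay between 24.1 and 49.5 CPM. Without that library its log2 fold change was 0.05 in place of -0.65. COL8A1, a short-chain network collagen, did not exceed 4.44 CPM and had 1 count in early luteal replicate 2, without which its log2 fold change was 0.08.

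Collagen chains outside this set were taken from a list of 31, of which 17 could be tested. Of those, 12 were lower and 5 higher. At an unadjusted p under 0.05, 2 were lower and 0 higher, against 3.54% and 3.57% of all tested genes. COL4A4, a basement membrane chain, stood at 2.75, 4.04 and 22.0 CPM in post-ovulatory and 1.16, 1.63 and 1.99 CPM in early luteal tissue, with post-ovulatory replicate 3 far above the others (log2 fold change -2.60 ± 0.86). COL15A1, a collagen at the border of basement membrane and stroma, stood at 263, 239.6 and 238 CPM in post-ovulatory and 206, 70.9 and 79.8 CPM in early luteal tissue (log2 fold change -1.05 ± 0.42), and it was also the listed chain with the highest mean CPM. COL13A1, a transmembrane collagen, ran from 4.76 to 7.70 CPM in post-ovulatory and from 2.03 to 3.59 CPM in early luteal tissue. Of the chains known from cartilage, COL2A1 and COL10A1 were at 0.505 CPM or less in each library, whereas COL11A1 stood at 3.13, 19.5 and 9.98 CPM in post-ovulatory and 11.3, 27.0 and 18.4 CPM in early luteal tissue and COL27A1 ran from 13.6 to 25.01 CPM in post-ovulatory and from 1.49 to 20.3 CPM in early luteal tissue; these 4 were named after their values were seen.

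The genes that modify collagen inside the cell did not follow the chains as a group. Of the 7, 3 were lower and 4 higher in the mean, and their median log2 fold change was 0.03. SERPINH1, PLOD1 and PLOD3 were the lower ones. SERPINH1, the collagen-specific chaperone (chr9:9782939-9794485), stood at 480.5, 327 and 311 CPM in post-ovulatory and 143, 76.8 and 109 CPM in early luteal tissue. The highest early luteal value was 46.1% of the lowest post-ovulatory one, and the means were 109.6 ± 33.2 against 373 ± 93.5 CPM, 3.40-fold lower. With a log2 fold change of -1.77 ± 0.33 (SE) it had the lowest p of the 41 genes, an unadjusted 0.000590, and its adjusted p was 0.503 in edgeR and 0.000432 in DESeq2.

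The prolyl 4-hydroxylase subunits, which make the hydroxyproline that stabilises the triple helix, stood level or higher. P4HA1 stood at 78.9, 67.3 and 82.7 CPM in post-ovulatory and 108, 111 and 79.6 CPM in early luteal tissue, so that 2 of the 3 early luteal libraries lay above all post-ovulatory ones (log2 fold change 0.38 ± 0.25). P4HA2 ran from 73.0 to 86.6 CPM in post-ovulatory and from 72.1 to 92.2 CPM in early luteal tissue, with a log2 fold change of 0.03 ± 0.24 whose sign turned when the low-count filter was dropped. P4HA3 was the gene of the group whose early luteal libraries all lay above the post-ovulatory ones, but from few counts: 7, 8 and 25 against 18, 22 and 39, or 0.521 to 1.01 against 1.16 to 2.98 CPM (log2 fold change 1.52 ± 0.70, edgeR adjusted p = 0.685). The lysyl hydroxylases, which prepare lysines for crosslinks, differed among themselves. PLOD2 had a log2 fold change of 0.21 ± 0.24, whereas PLOD1 and PLOD3 had -0.67 ± 0.42 and -0.69 ± 0.50, with early luteal replicate 2 the lowest library in both (7.05 and 7.86 CPM). The stages did not overlap in PLOD1 and overlapped in PLOD3, and without that library the log2 fold changes were -0.36 and -0.27.

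A wider list of genes for collagen folding, export and processing held 28 tested genes, of which 21 were lower and 7 higher, with a median of -0.40. At an unadjusted p under 0.05 stood 6 lower and 1 higher, where 3.54% of all tested genes were lower and 3.57% higher. FKBP10, a prolyl isomerase of the endoplasmic reticulum that acts on procollagen, stood at 60.3, 42.7 and 47.1 CPM in post-ovulatory and 22.5, 5.01 and 16.0 CPM in early luteal tissue (log2 fold change -1.78 ± 0.50, edgeR adjusted p = 0.632). PPIB, cyclophilin B of the prolyl 3-hydroxylation complex, stood at 736, 323 and 369 CPM in post-ovulatory and 214, 179 and 234 CPM in early luteal tissue (log2 fold change -1.19 ± 0.36). CREB3L1, a transcription factor of secretory cells known to act on COL1A1, stood at 16.8, 8.84 and 5.66 CPM in post-ovulatory and 3.67, 1.76 and 3.52 CPM in early luteal tissue (log2 fold change -1.79 ± 0.59). In all 3 of these the stages did not overlap. The other genes counted, named after their values were seen, were P3H4 (log2 fold change -1.54), the retrieval receptor KDELR3 (-1.06) and the procollagen N-proteinase ADAMTS2 (-2.51) among the lower ones, and PCOLCE2 (0.91), a relative of PCOLCE, as the higher one. P3H4 and FKBP10 are neighbours on chromosome 12 (chr12:20881807-20891482 and chr12:20872155-20881604). ADAMTS2 had 0 counts in early luteal replicate 2, so its fitted fold change is not a measured size.

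**Figure D3:**
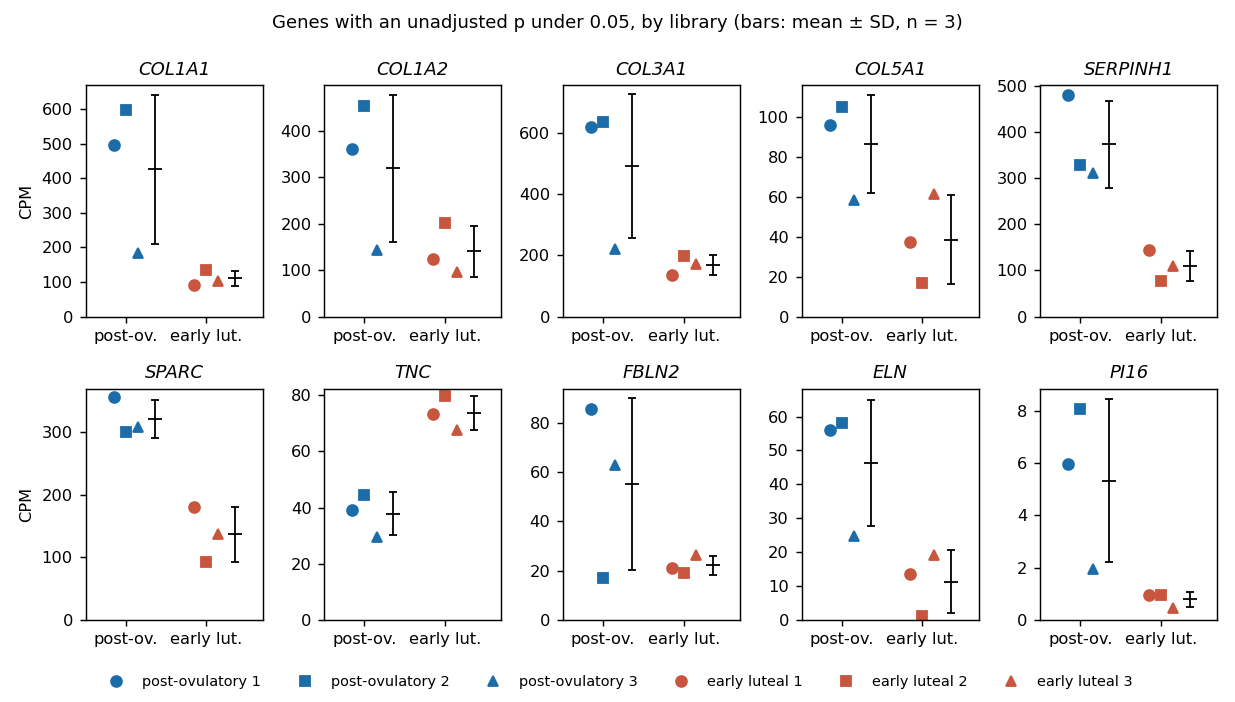
CPM in each library (linear axis from 0, a symbol for each replicate) of the 10 genes with an unadjusted p under 0.05, with the mean ± SD of each stage. In COL1A1, COL3A1, SERPINH1, SPARC, ELN and PI16 the 3 early luteal libraries lie below the 3 post-ovulatory ones, and in TNC they lie above.

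Genes of the extracellular steps showed no common difference. BMP1, the procollagen C-proteinase, stood at 21.6, 25.1 and 16.5 CPM in post-ovulatory and 15.3, 1.08 and 9.77 CPM in early luteal tissue, without overlap, and early luteal replicate 2 rested on 8 counts (log2 fold change -1.25 ± 0.74). PCOLCE stood at 35.2, 42.4 and 24.1 CPM in post-ovulatory and 31.9, 9.62 and 24.7 CPM in early luteal tissue, where early luteal replicate 2 alone was low (log2 fold change -0.61 ± 0.46). The crosslinking enzymes LOX, LOXL1 and LOXL2 lay close to 0, with log2 fold changes of 0.15 ± 0.42, -0.08 ± 0.50 and -0.04 ± 0.53. Each of these 3 changed sign when some single libraries were left out, and LOXL2 also under 2 other scalings. Their SEs were about as large as the difference found for DCN (-0.44), so a difference of that size would not have been detectable here.

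Small leucine-rich proteoglycans were lower in 4 of 5 genes (against 51.8% of all tested genes), with a median of -0.58. At an unadjusted p under 0.05 stood 0, where 3.54% of all tested genes were lower and 3.57% higher. DCN, decorin, stood at 299, 415 and 331 CPM in post-ovulatory and 275, 259 and 239 CPM in early luteal tissue. The stages did not overlap, although the post-ovulatory libraries were spread more widely than the gap between the stages, and the means of 258 ± 18.1 against 349 ± 59.8 CPM differed 1.35-fold (log2 fold change -0.44 ± 0.25, edgeR adjusted p = 0.735). LUM, lumican, is the neighbour of DCN on chromosome 5 (chr5:91748871-91756381, with DCN at chr5:91678601-91713925). It stood at 227, 177 and 195 CPM in post-ovulatory and 176, 174 and 51.7 CPM in early luteal tissue, so that early luteal replicate 3 alone was clearly low. FMOD, fibromodulin, ran from 66.7 to 97.1 CPM in post-ovulatory and from 38.7 to 61.2 CPM in early luteal tissue, without overlap (log2 fold change -0.63 ± 0.29). BGN, biglycan, stood at 59.6, 48.1 and 30.2 CPM in post-ovulatory and 31.7, 5.69 and 3.19 CPM in early luteal tissue, with 2 early luteal libraries very low and early luteal replicate 1 within the post-ovulatory range (log2 fold change -1.75 ± 0.78, edgeR adjusted p = 0.685). Its log2 fold change was -3.37 without early luteal replicate 1 (edgeR adjusted p = 0.1003) and -1.29 without replicate 3.

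OGN, osteoglycin, had early luteal libraries both below and above the post-ovulatory range, at 163, 111 and 169.8 CPM in post-ovulatory and 39.3, 248 and 174 CPM in early luteal tissue, with a log2 fold change of 0.06 ± 0.56 whose sign turned under several alternatives. It lies on chromosome 3 beside OMD, ASPN and ECM2, which encode related leucine-rich proteins (OGN at chr3:42116521-42135940, OMD at chr3:42142603-42155032). OMD, osteomodulin, stood at 48.1, 37.3 and 44.2 CPM in post-ovulatory and 26.3, 239 and 177 CPM in early luteal tissue (log2 fold change 1.77 ± 0.65). ASPN, asporin, stood at 46.7, 23.9 and 32.1 CPM in post-ovulatory and 5.73, 74.8 and 30.9 CPM in early luteal tissue, and ECM2 stood at 53.6, 56.1 and 51.6 CPM in post-ovulatory and 32.8, 169 and 76.8 CPM in early luteal tissue; both were named after their values were seen. In all 4 neighbours the lowest library was early luteal replicate 1 and the highest was early luteal replicate 2.

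Fibronectin and the matricellular genes, whose proteins tune how cells attach to matrix, split in direction. SPARC encodes a collagen-binding glycoprotein that acts in procollagen handling and fibril assembly. It stood at 356, 300.1 and 309 CPM in post-ovulatory and 181, 92.5 and 137 CPM in early luteal tissue, and the lowest post-ovulatory library was 1.66 times the highest early luteal one. The means were 137 ± 44.0 against 322 ± 30.2 CPM, a fitted 2.35-fold lower, with a log2 fold change of -1.23 ± 0.31 (SE) and an adjusted p of 0.575 in edgeR and 0.0268 in DESeq2.

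TNC, tenascin-C, a glycoprotein of remodelling matrix, was the only one of the 41 genes with an unadjusted p under 0.05 and higher counts in early luteal tissue. It stood at 39.2, 44.6 and 29.5 CPM in post-ovulatory and 73.3, 79.8 and 67.8 CPM in early luteal tissue, with every early luteal library well above the post-ovulatory ones. The means were 73.6 ± 6.03 against 37.8 ± 7.66 CPM, 1.95-fold higher (log2 fold change 0.96 ± 0.26, edgeR adjusted p = 0.632, DESeq2 adjusted p = 0.0935). POSTN, periostin, stood at 176, 237 and 139.6 CPM in post-ovulatory and 163, 434 and 238 CPM in early luteal tissue, with early luteal replicate 2 the highest and replicate 1 within the post-ovulatory range (log2 fold change 0.60 ± 0.40). FN1, fibronectin, ran from 65.8 to 146 CPM in post-ovulatory and from 49.5 to 154 CPM in early luteal tissue (log2 fold change 0.30 ± 0.48). Without early luteal replicate 2 the log2 fold changes of POSTN and FN1 were 0.12 and 0.11.

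Smooth muscle markers in sum were highest in early luteal replicates 2 and 3, where several matrix genes were high too. Those genes were singled out by that pattern, so the likeness is no evidence of its own. The summed level of 13 smooth muscle markers was 5827, 9811 and 5074 CPM in post-ovulatory and 2372, 12749 and 16745 CPM in early luteal tissue. Of the 13, 12 were higher and 1 lower in the early luteal mean, where 51.8% of all tested genes were lower. At an unadjusted p under 0.05 stood 0, against 3.54% of all tested genes lower and 3.57% higher. None of the 13 was at 0 in any library. FN1 and POSTN, like the muscle sum, were lower in early luteal replicate 1 than in replicates 2 and 3, whereas TNC in replicate 1 lay between the other 2. Post-ovulatory replicate 2 had the highest muscle sum, POSTN and FN1 of its stage, but the lowest OGN and OMD. The part of muscle content in these values was not tested. Immediate early genes, whose levels depend on how tissue is handled, summed to 679, 982 and 372 CPM in post-ovulatory and 494, 1399 and 1777 CPM in early luteal tissue, and their part was not tested.

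**Figure D4:**
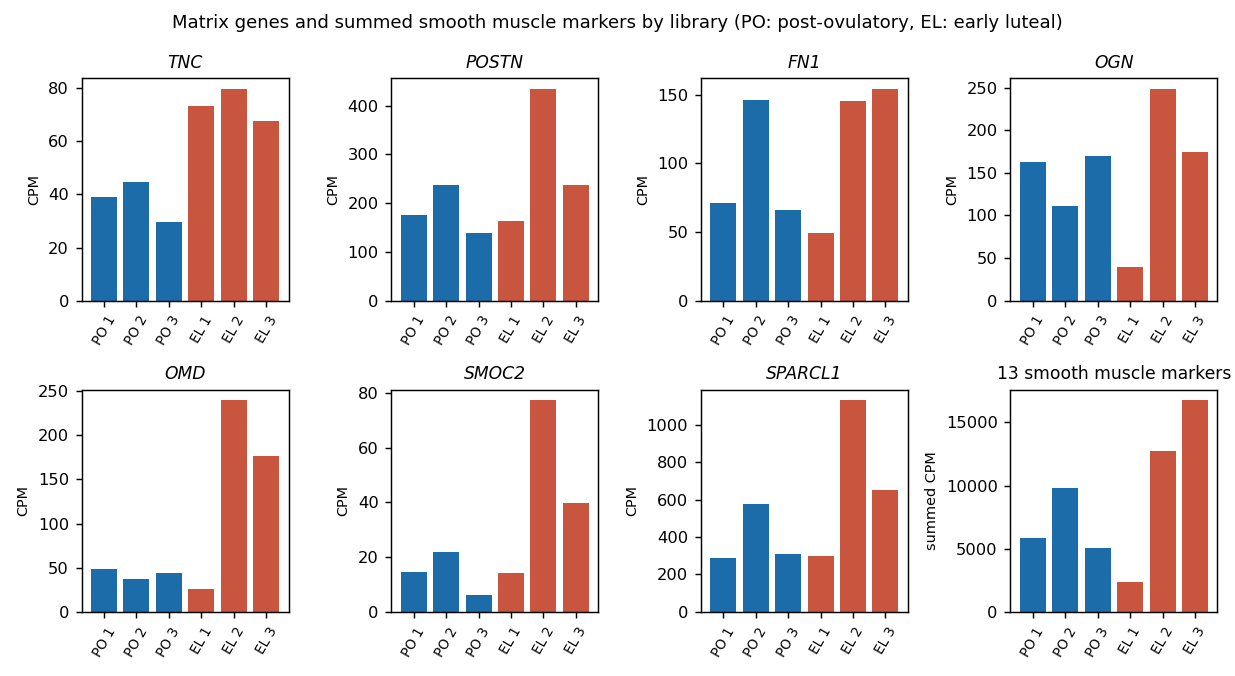
CPM per library (bars, linear axis from 0; blue post-ovulatory, red early luteal replicates 1 to 3) of TNC, POSTN, FN1, OGN, OMD, SMOC2 and SPARCL1, and the summed CPM of 13 smooth muscle markers. TNC is high in all 3 early luteal libraries (67.8 to 79.8 CPM), while the muscle sum is 2372 CPM in early luteal replicate 1 and 12749 and 16745 CPM in replicates 2 and 3.

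The other interstitial matrix genes on a list of 42 had no common direction. Of 35 tested, 18 were lower and 17 higher, with a median log2 fold change of -0.06. At an unadjusted p under 0.05, 1 was lower and 2 were higher, against 3.54% and 3.57% of all tested genes. The lower one was ECM1, a secreted matrix glycoprotein, at 22.8, 21.6 and 27.7 CPM in post-ovulatory and 11.3, 2.85 and 5.72 CPM in early luteal tissue (log2 fold change -1.84 ± 0.52, edgeR adjusted p = 0.632, DESeq2 adjusted p = 0.0407). The higher ones were OMD, given above, and SMOC2, a matricellular relative of SPARC, at 14.7, 21.9 and 5.98 CPM in post-ovulatory and 14.4, 77.2 and 39.7 CPM in early luteal tissue. SPARCL1, another relative of SPARC and the listed gene with the highest mean CPM, stood at 287, 579 and 308 CPM in post-ovulatory and 297, 1131 and 652 CPM in early luteal tissue (log2 fold change 0.83 ± 0.50). In SMOC2 and SPARCL1 early luteal replicate 1 lay within the post-ovulatory range and the other early luteal libraries above it.

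Genes of elastic fibres, the stretchable part of the matrix, were lower in the mean in 5 of 5 (against 51.8% of all tested genes). Their median was -0.37. Without early luteal replicate 2 the median was -0.72, which was the value of FBN1 (-0.37 with that library). The other elastic fibre genes then moved toward 0, with ELN at -1.50, FBLN2 at -1.23, FBLN1 at -0.04 and FBLN5 at -0.08. ELN, the elastin gene (chr3:11214194-11245891), stood at 56.1, 58.1 and 24.7 CPM in post-ovulatory and 13.5, 1.08 and 19.1 CPM in early luteal tissue. The stages did not overlap, and early luteal replicate 2 held only 8 counts (log2 fold change -2.02 ± 0.80, edgeR adjusted p = 0.685). FBLN2, fibulin-2, a linker of elastic fibres and basement membrane, stood at 85.6, 16.8 and 62.9 CPM in post-ovulatory and 20.9, 19.0 and 26.4 CPM in early luteal tissue. All early luteal libraries were low, but post-ovulatory replicate 2 was the lowest of the 6 (log2 fold change -1.32 ± 0.53). FBLN1, fibulin-1, stood at 484, 629 and 455 CPM in post-ovulatory and 486, 253 and 531 CPM in early luteal tissue (log2 fold change -0.30 ± 0.34), where only early luteal replicate 2 lay below the other stage. FBN1, the fibrillin of microfibrils, ran from 24.9 to 35.6 CPM in post-ovulatory and from 16.0 to 34.4 CPM in early luteal tissue. FBLN5, which places elastin on microfibrils, ran from 20.6 to 54.1 and from 28.6 to 31.5 CPM, and its sign turned under the replicate block and without post-ovulatory replicate 3.

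Of the fibroblast markers, PI16, found on adventitial fibroblasts, stood at 5.96, 8.08 and 1.95 CPM in post-ovulatory and 0.966, 0.948 and 0.465 CPM in early luteal tissue. The post-ovulatory values rested on 80, 64 and 61 counts and the early luteal ones on 15, 7 and 7. Its stages did not overlap, with a fitted difference of 6.67-fold (log2 fold change -2.74 ± 0.74, adjusted p 0.632 in edgeR and 0.0426 in DESeq2). PDGFRA, the growth factor receptor that marks most tissue fibroblasts, stood at 37.8, 62.4 and 26.9 CPM in post-ovulatory and 53.6, 25.3 and 7.78 CPM in early luteal tissue. Early luteal replicate 1 lay within the post-ovulatory range and early luteal replicate 3 was the lowest of the 6 (log2 fold change -0.55 ± 0.63, edgeR adjusted p = 0.851, and -1.33 as the log2 fold change without early luteal replicate 1). Among the early luteal libraries replicate 1 had the most PDGFRA and, by a small margin, the least COL1A1 (91.3 CPM, against 104 CPM in replicate 3). Some genes of the set, such as DCN and LUM, kept the PDGFRA order of these libraries, and others, such as COL3A1, did not. These genes were picked after their values were seen, and the part of fibroblast content was not tested.

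Markers of stroma outside the set were mixed. Of 14 tested, 8 were lower and 6 higher, with a median of -0.12. At an unadjusted p under 0.05, 2 were lower and 1 was higher, against 3.54% and 3.57% of all tested genes. Their summed level was 1235, 1419.9 and 955 CPM in post-ovulatory and 1783, 762 and 853 CPM in early luteal tissue, of which VIM, vimentin, made up much. Pericyte markers, with 4 of 8 lower and 4 higher, summed to between 132 and 195 CPM in post-ovulatory and between 117 and 242 CPM in early luteal libraries. Endothelial markers were lower in 11 of 13 (against 51.8% of all tested genes), with a median of -0.57, near the -0.61 of the 41 matrix genes. Of them, 2 were lower and 0 higher at an unadjusted p under 0.05, against 3.54% and 3.57%. They summed to 393 to 656 against 435 to 585 CPM, with CLDN5, EGFL7 and ESAM at 0 in early luteal replicate 2. Leukocyte markers were lower in 12 of 12, with a median of -0.51 and 0 at an unadjusted p under 0.05, and summed to 305 to 838 against 77.0 to 917 CPM. A lower median was thus not particular to the matrix genes. Epithelial markers, at 2349 to 13850 against 3580 to 5126 CPM, were dominated by OVGP1. Mesothelial markers stood at 454 to 612 against 518 to 543 CPM. Erythrocyte markers stood at 1.05 to 120 against 50.4 to 153 CPM, nearly all of it HBB. The part of other cell types in the matrix values was not tested.

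Ratios between matrix genes within a library do not depend on how libraries are scaled, and 10 were computed as log2 of the counts with 0.5 added. In an exact two-sided permutation test of 3 against 3 libraries the smallest p possible is 0.1, so none could pass the threshold. It was reached by 7 of the 10, with an adjusted p of 0.143 (Benjamini-Hochberg over 10), which says only that the stages did not overlap in them. How often other pairs of genes do so was not computed. The pairs share genes, with COL1A1 and DCN in several, and come from a list chosen with earlier results known. They are therefore no separate evidence. COL1A1 over COL1A2 stood at 0.46, 0.40 and 0.35 over the post-ovulatory libraries and at -0.43, -0.57 and 0.12 over the early luteal ones. The post-ovulatory ratios lay close together, although their COL1A1 levels differed up to 3.24-fold, and the early luteal ratios were 1.63-fold lower in the mean (difference -0.70, exact permutation p = 0.1, n = 3 each). COL3A1 over COL1A1 went the other way, at 0.32, 0.09 and 0.27 over the post-ovulatory libraries and at 0.57, 0.56 and 0.72 over the early luteal ones (difference 0.39). So COL1A1 stood lower in early luteal tissue relative to both of these partners.

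COL6A1 over COL6A2 stood at 1.06, 1.23 and 1.51 over the post-ovulatory libraries and at 1.85, 2.09 and 1.90 over the early luteal ones, 1.60-fold higher in early luteal tissue. COL6A3 over COL6A1 overlapped widely, at -0.10, -0.94 and -2.04 over the post-ovulatory libraries and at -1.30, 0.31 and -1.72 over the early luteal ones. COL5A1 over COL5A2 stood at -0.28, -0.12 and 0.29 over the post-ovulatory libraries and at -0.32, -2.25 and -0.35 over the early luteal ones, where early luteal replicate 2 set most of the difference and the other 2 lay just below the lowest post-ovulatory library. Decorin served as a stromal reference. COL1A1 over DCN stood at 0.73, 0.52 and -0.85 over the post-ovulatory libraries and at -1.59, -0.94 and -1.20 over the early luteal ones, 2.60-fold lower in the mean. SPARC over DCN stood at 0.25, -0.47 and -0.10 over the post-ovulatory libraries and at -0.61, -1.49 and -0.81 over the early luteal ones, 1.81-fold lower, and TNC over DCN at -2.93, -3.22 and -3.49 over the post-ovulatory libraries and at -1.91, -1.70 and -1.82 over the early luteal ones, 2.65-fold higher. COL3A1 over DCN and LUM over DCN overlapped between the stages (differences -0.99 and -0.35, exact permutation p = 0.3 and 0.7, n = 3 each). These ratios show unequal differences between genes, and not that DCN itself was the same.

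**Figure D5:**
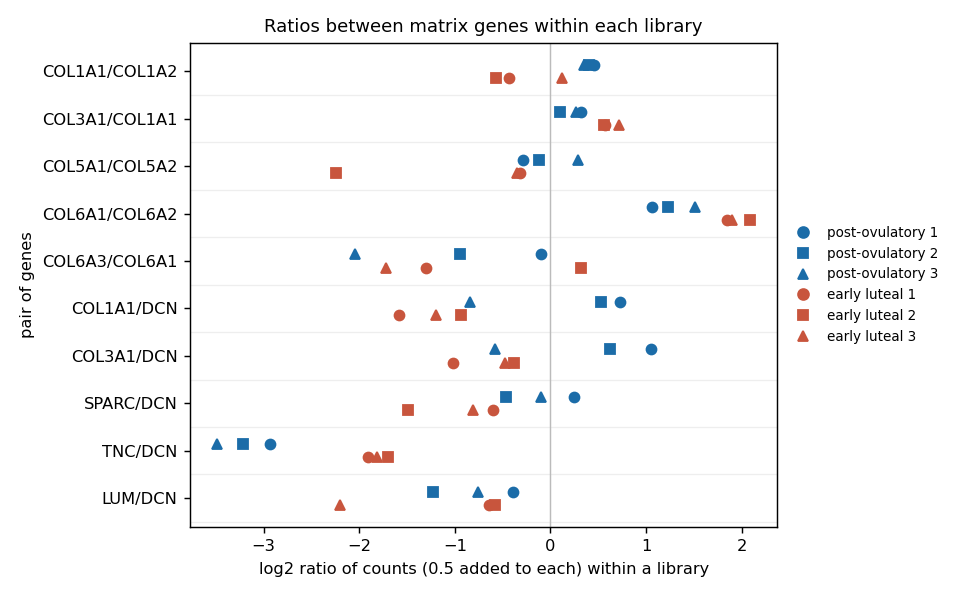
Log2 ratio of counts (0.5 added to each) for 10 pairs of genes, 1 point per library, with post-ovulatory libraries in blue and early luteal ones in red. COL1A1/COL1A2 lies between 0.35 and 0.46 in the post-ovulatory libraries and between -0.57 and 0.12 in the early luteal ones, and TNC/DCN is separated by the widest gap.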

How the data were processed

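Per the labels' protocols, stranded libraries of polyadenylated RNA were made with a KAPA kit from total RNA of ampulla tissue. The submitters' processing notes name the build Sscrofa11.1 with STAR, Trim Galore and FastQC 0.11.4. How reads were assigned to genes (program, strand, annotation release) is not given in the sources used here, which leaves genes that overlap, antisense genes and close copies uncertain. The authors deposited raw counts per Ensembl gene for 6 libraries. Columns were assigned by their header words; 1 word lacks a letter of the label it was matched to and fits no other label.

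From these counts, edgeR 4.0.16 (R 4.3.3) was run with TMM scaling, filterByExpr and the robust quasi-likelihood test, two-sided, over all 17920 genes that passed; the SE is the size of the log2 fold change divided by the root of the F statistic. DESeq2 1.42.0 and limma 3.58.1 (voom) were alternatives. Of these tests the edgeR fit alone was tried on simulated counts, with the same dispersion for all genes. Symbols came from a table that named 15623 of the 35670 identifiers. Coordinates are RefSeq's on Sscrofa11.1, matched by symbol.

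The genes and lists were chosen with earlier results of these data known. Values in every library are given for genes with an unadjusted p under 0.05 and the 2 of highest mean CPM in each role. Those of BGN and OGN, and the counts of P4HA3, are also given and were chosen after their values were seen. From each wider list the 3 genes of lowest p and the 1 of highest mean CPM are named.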

Additional observations from a re-analysis of the deposited data

How the results depend on the processing

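The edgeR fit was repeated with 3 other scalings (DESeq2 size factors, upper quartile, library totals), with the low-count filter dropped or set to 1 CPM in 3 libraries, with a replicate block and without each library, and the test was replaced by DESeq2 and limma voom. The number of genes past the threshold was 8 with no filter and 174 in DESeq2, against 0 in edgeR, and the 41 genes held 0 and 4 of them (COL1A1, SERPINH1, SPARC and PI16). The genes at an unadjusted p under 0.05 numbered 5 (without post-ovulatory replicate 1) to 10 lower and 1 to 3 higher when libraries were left out, where 1.42% to 5.68% of all genes were lower and 1.79% to 5.85% higher; without early luteal replicate 2 they numbered 8 and 1. The causes were not tested. The median log2 fold change ran from -0.80 (without early luteal replicate 1) to -0.40 (without post-ovulatory replicate 2). Stages that do not overlap, a setting added after seeing the data, numbered 14 to 18 lower with 1 library left out, where 12.5% to 17.9% of all genes did so.

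The replicate number as a block gave a median of -0.76, with 8 lower and 1 higher at an unadjusted p under 0.05, against 3.52% and 2.30% of all genes. Same-numbered libraries deviated with correlations of 0.052, -0.082 and 0.13, and not every library correlated best with its own number, so the numbers were not taken as a pairing.

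Signs turned in 8 genes, none of which passed the threshold. LOXL2 turned to 0.014 with upper quartile scaling and 0.045 with library totals, P4HA2 to -0.021 and OGN to -0.021 without a filter, OGN to -0.25 and FBLN5 to 0.025 with the block, and OGN to -0.31 in limma voom. With 1 library left out LOXL2 ran from -0.63 to 0.28, P4HA2 from -0.098 to 0.095, OGN from -0.48 to 0.53, COL12A1 from -0.91 to 0.049, LOXL1 from -0.30 to 0.18, LOX from -0.18 to 0.35, FBLN5 from -0.37 to 0.46 and COL8A1 from -1.80 to 0.077. The difference in COL6A3/COL6A1 then ran from -0.49 to 0.59 and in LUM/DCN from -0.63 to 0.19. Of the other ratios none changed sign. Depth limits PI16, P4HA3, COL8A1, and BMP1 and ELN in early luteal replicate 2.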
